A study of Mus musculus with 6 samples.

Results

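The 32 genes described here encode structural proteins of the extracellular matrix, the enzymes that cross-link and degrade it, its TGF-beta regulators and cytoskeletal proteins of myofibroblasts. They were taken by gene symbol from a table of 20107 genes counted by RNA sequencing of mouse liver, and all 32 were found. The HFHC livers came from wild-type C57BL/6N (Envigo) males aged 16 weeks that had eaten HFHC from 8 weeks of age, that is, for 8 weeks. HFHC is a high-fat, high-calorie food with fructose, given with a drink high in fructose. The Chow livers came from male littermates of the same strain and age kept on Chow. Each diet had 3 libraries (HFHC replicates 1, 2 and 3, Chow replicates 7, 8 and 9). The labels do not identify the animals, so p-values measure the spread between these samples. The HFHC libraries held 30096409 to 30871297 counts and the Chow libraries 26767416 to 27339613. The first principal component of all tested genes (46.6% of the variance) separated the diets, and the second (16.6%) set Chow replicate 8 apart. Hepatocyte markers dominated every library, with albumin and 4 other hepatocyte genes summing to 83660 to 86253 CPM (counts per 1000000 counts of the library) in HFHC and 73514 to 92671 CPM in Chow.

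In the liver the matrix is thin along the sinusoids, where type IV collagen and fibronectin predominate, and thicker around portal tracts, where fibrillar collagens of types I, III and V lie. Hepatic stellate cells, the vitamin A-storing pericytes of the sinusoids, are known as the main source of fibrillar collagen once TGF-beta and other signals turn them into contractile myofibroblasts. The net amount of matrix also depends on matrix metalloproteinases and on the TIMP proteins that inhibit them. In whole-liver RNA, more cells of a type and more RNA per cell cannot be told apart.

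Of the 29 matrix genes that passed the filter on low counts, 0 were called higher and 0 lower in HFHC livers with an adjusted p below 0.05 (edgeR's quasi-likelihood test, Benjamini-Hochberg adjustment over 14896 genes). Of all genes tested, 6.67% were called, 3.38% higher and 3.3% lower. At an unadjusted p under 0.05, 7 members were higher (Smoc2, Thbs1, Mmp12, Col1a1, Col3a1, Col1a2 and Vim) and 0 lower, beside 10.8% and 11.5% of all genes. The log2 fold change (HFHC over Chow) was positive in 23 of 29 members, with a median of 0.19, while 49.5% of all tested genes were positive. Of the 29 members, 23 had a 95% interval that lay between a 2-fold decrease and a 2-fold increase, as did 84.7% of all tested genes. All 3 HFHC livers exceeded all 3 Chow livers for 4 members (Smoc2, Thbs1, Mmp12 and Vim) and lay below them for 0, beside 13.5% and 14.3% of all genes. DESeq2 called 5 members higher (Col1a1, Col1a2, Mmp12, Smoc2 and Thbs1) and 0 lower, where it called 4.1% of all genes higher and 4.52% lower. Limma-voom with sample weights called 3 higher (Col1a1, Col3a1 and Smoc2) and 0 lower, beside 4.73% and 5.3% of all genes, and unweighted limma-voom called 0 in either direction, beside 3.15% and 3.26%. Smoc2 was the 1 member called with upper-quartile scaling (3.99% of all genes higher, 2.69% lower) and in the robust edgeR fit (3.39% higher, 3.63% lower).

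**Figure D1:**
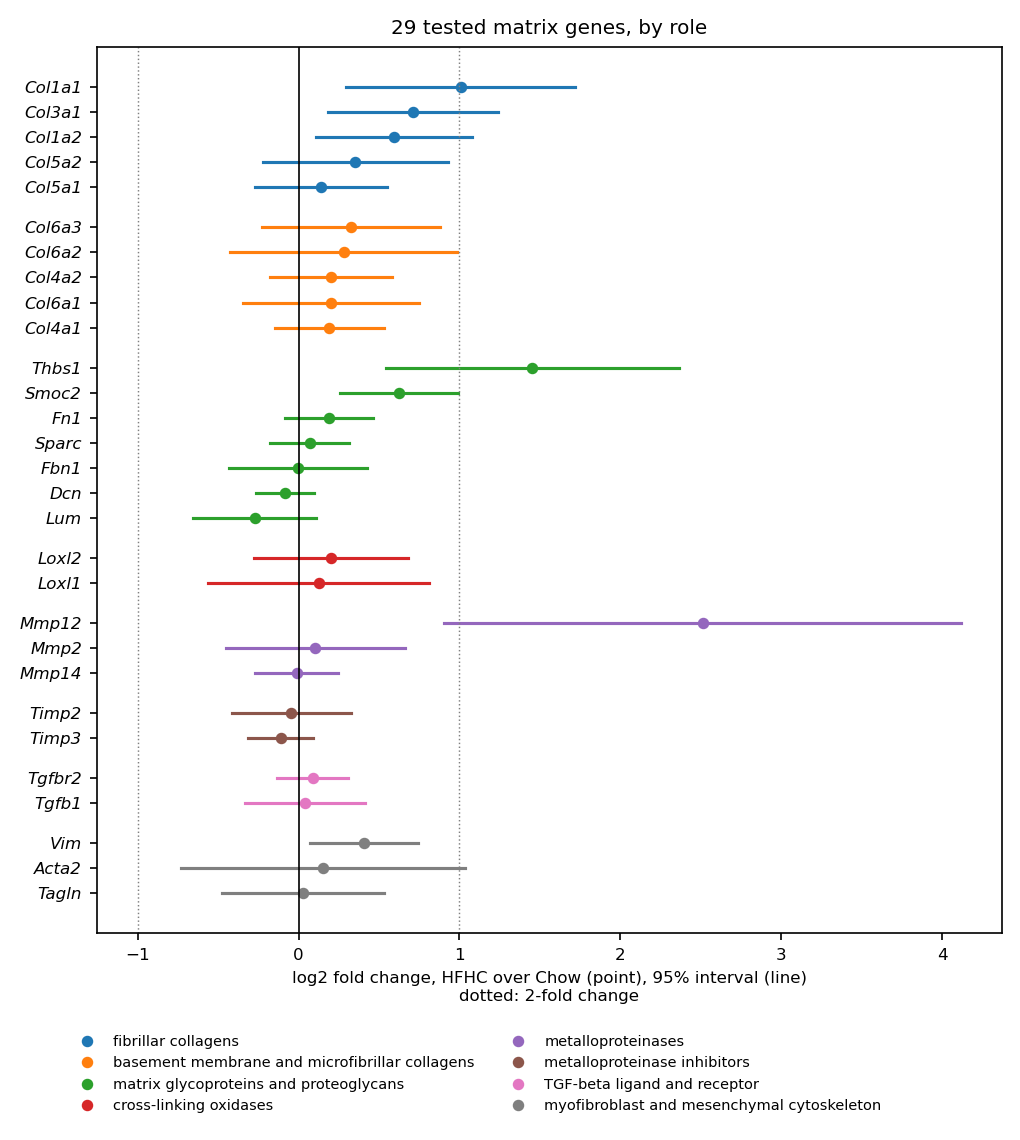
Log2 fold changes, HFHC over Chow, of the 29 tested matrix genes grouped by role (points, edgeR) with 95% intervals (lines); dotted lines mark a 2-fold change. Intervals of 7 genes lie above 0 (Smoc2, Thbs1, Mmp12, Col1a1, Col3a1, Col1a2 and Vim) and that of no gene lies below it.

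Type I and type III collagens, which form the banded fibrils of scar tissue, had the highest values in HFHC replicates 1 and 2. Col1a1, the alpha 1 chain of type I collagen (chromosome 11, 94936224 to 94953042, mm10, plus strand), stood at 7.48, 10.6 and 3.79 CPM in HFHC replicates 1, 2 and 3 and at 3.30, 4.28 and 3.32 CPM in Chow replicates 7, 8 and 9. HFHC replicate 3 lay within the Chow range, so the diets overlapped. The log2 fold change was 1.01 ± 0.32 (SE, adjusted p = 0.0952 in edgeR), with a 95% interval from 0.29 to 1.72. Col1a2, which encodes the alpha 2 chain that joins Col1a1 in the same trimer (chromosome 6, 4504814 to 4541544, plus strand), stood at 16.3, 18.3 and 9.32 CPM in HFHC replicates 1, 2 and 3 and at 9.75, 10.5 and 8.79 CPM in Chow replicates 7, 8 and 9. Its log2 fold change was 0.59 ± 0.22 (adjusted p = 0.139 in edgeR). Col3a1, the single chain of type III collagen (chromosome 1, 45311538 to 45349706, plus strand), stood at 43.8, 51.1 and 23.4 CPM in HFHC replicates 1, 2 and 3 and at 23.4, 26.8 and 22.0 CPM in Chow replicates 7, 8 and 9. Its log2 fold change was 0.71 ± 0.24 (adjusted p = 0.109 in edgeR). In each of these 3 genes HFHC replicates 1 and 2 exceeded every Chow library and HFHC replicate 3 did not. Without HFHC replicate 3, where 2.53% of all genes were called higher and 2.02% lower, all 3 were called higher, Col1a1 at 1.32 (adjusted p = 0.0115 in edgeR), Col1a2 at 0.83 (0.00848) and Col3a1 at 0.98 (0.00392). Without HFHC replicate 2 their log2 fold changes were 0.63, 0.40 and 0.48 (adjusted p = 0.246, 0.336 and 0.278 in edgeR).

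The start regions of Col1a2 and Col3a1, taken from RefSeq (GRCm38.p6), are shown because their RNAs had the same order over the HFHC livers. Every other collagen among the members had this order too, and a link between these sequences and the levels was not tested. Each runs from 250 bases before the RefSeq start to 50 bases after it, on the plus strand. Col1a2 is at chr6:4505368-4505667 and Col3a1 at chr1:45311288-45311587. The Col1a2 window lies wholly inside the gene interval given above, which begins at 4504814, so its RefSeq start differs from the start of that interval. Capitals mark CCAAT or its reverse complement ATTGG, the GC box GGGCGG or CCGCCC, and the TATA box TATAAA or TTTATA.
Col1a2: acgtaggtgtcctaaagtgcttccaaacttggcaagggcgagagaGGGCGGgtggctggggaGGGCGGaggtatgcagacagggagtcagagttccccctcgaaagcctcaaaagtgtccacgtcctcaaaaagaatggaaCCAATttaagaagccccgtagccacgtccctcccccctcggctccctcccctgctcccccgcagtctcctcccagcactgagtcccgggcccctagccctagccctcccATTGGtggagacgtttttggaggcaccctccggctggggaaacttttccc
Col3a1: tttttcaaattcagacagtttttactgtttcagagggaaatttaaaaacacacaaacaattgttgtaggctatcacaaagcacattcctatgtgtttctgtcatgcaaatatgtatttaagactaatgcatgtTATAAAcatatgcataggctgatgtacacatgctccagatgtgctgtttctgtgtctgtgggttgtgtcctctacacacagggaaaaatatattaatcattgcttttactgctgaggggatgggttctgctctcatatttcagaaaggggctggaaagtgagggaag
The Col1a2 window held 2 GC boxes and 2 CCAAT boxes and had a GC content of 61.0%. The Col3a1 window held 1 TATA box, beginning 117 bases before the RefSeq start, and neither of the others, at a GC content of 37.7%. Among the 32851 RefSeq windows of this length, 37.4% held a CCAAT box, 35.7% a GC box and 13.6% a TATA box, and among the 20 member windows 8, 11 and 3 did. No 2 marked motifs overlapped in the windows printed here.

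The chains of type V collagen, which seed fibrils of type I, did not pass. Col5a1 averaged 6.88 ± 1.77 CPM in HFHC and 6.24 ± 0.40 CPM in Chow (SD, n = 3 each), and Col5a2 averaged 3.52 ± 1.26 CPM in HFHC and 2.76 ± 0.42 CPM in Chow. Their log2 fold changes were 0.14 ± 0.18 and 0.35 ± 0.26 (adjusted p = 0.709 and 0.468 in edgeR). In all 5 fibrillar chains HFHC replicate 2 was the highest of the 6 libraries.

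Type IV collagen, the network of basement membranes and of the sinusoidal wall, is encoded by Col4a1 and Col4a2, which lie head to head on chromosome 8 with their starts overlapping by 22 bases on opposite strands. Col4a1 averaged 30.0 ± 6.46 CPM in HFHC livers and 26.3 ± 2.603 CPM in Chow livers, and Col4a2 averaged 25.3 ± 6.35 CPM in HFHC and 22.0 ± 1.99 CPM in Chow. Their log2 fold changes were 0.19 ± 0.15 and 0.20 ± 0.17 (adjusted p = 0.516 and 0.545 in edgeR), with 95% intervals that ended at 0.53 and 0.58. Per kilobase of exon, Col4a1 stood at 1.06 ± 0.04 times Col4a2 in HFHC and 1.06 ± 0.13 times in Chow, and the diets overlapped in this ratio. The window around the Col4a1 start is shown because the gene pair shares it: it runs over chr8:11312777-11313076 on the minus strand (GRCm38.p6), and 78 of its bases belong to the Col4a2 window too.
Col4a1: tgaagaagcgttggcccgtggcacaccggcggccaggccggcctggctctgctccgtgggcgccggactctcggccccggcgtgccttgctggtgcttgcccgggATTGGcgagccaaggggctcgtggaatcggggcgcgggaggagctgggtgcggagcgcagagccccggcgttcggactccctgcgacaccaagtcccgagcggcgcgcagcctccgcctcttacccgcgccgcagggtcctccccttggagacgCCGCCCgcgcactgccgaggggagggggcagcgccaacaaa
It held 1 CCAAT box, read as ATTGG, and 1 GC box, at a GC content of 74.0%.

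Type VI collagen forms beaded microfilaments between cells and fibrils. Col6a1 averaged 5.91 ± 2.06 CPM in HFHC and 5.15 ± 0.75 CPM in Chow. The means of Col6a2 were 3.39 ± 1.38 CPM in HFHC livers and 2.79 ± 0.80 CPM in Chow livers, and Col6a3 averaged 8.79 ± 3.09 CPM in HFHC and 7.01 ± 1.54 CPM in Chow. None passed (log2 fold changes 0.20, 0.28 and 0.33, adjusted p = 0.689, 0.659 and 0.491 in edgeR), and Col6a1 and Col6a2 turned negative without HFHC replicate 2 (-0.0323 and -0.0480). HFHC replicate 2 was again highest for all 5 chains of types IV and VI, and HFHC replicate 3 was below the HFHC mean for each.

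Among the glycoproteins, Smoc2 had the smallest p of all 29 members. It encodes a secreted calcium-binding matricellular protein of the SPARC family (chromosome 17, bases 14279506 to 14404790, plus strand). It stood at 6.33, 6.98 and 4.66 CPM in HFHC replicates 1, 2 and 3 and at 3.79, 3.95 and 3.92 CPM in Chow replicates 7, 8 and 9. Every HFHC liver was above every Chow liver. The Chow livers lay within 1.04-fold of each other and the HFHC livers within 1.498-fold. The log2 fold change was 0.62 ± 0.16 with a 95% interval from 0.26 to 0.99, and the adjusted p was 0.0536 in edgeR. Smoc2 passed without HFHC replicate 3 (0.77, adjusted p = 0.0179 in edgeR), and its adjusted p ran from 0.0179 to 0.162 over the 16 alternatives.

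Thbs1 encodes thrombospondin 1, a glycoprotein that can release TGF-beta from its latent complex. It stood at 1.62, 3.97 and 1.58 CPM in HFHC replicates 1, 2 and 3 and at 0.911, 0.617 and 1.09 CPM in Chow replicates 7, 8 and 9. The diets did not overlap, and HFHC replicate 2 was far above the others. The log2 fold change was 1.45 ± 0.41 (adjusted p = 0.0648 in edgeR), and 0.88 without HFHC replicate 2 (adjusted p = 0.141). Lum, or lumican, a small leucine-rich proteoglycan that binds collagen fibrils, had 7.76, 7.43 and 5.198 CPM in HFHC replicates 1, 2 and 3 and 9.60, 7.44 and 7.62 CPM in Chow replicates 7, 8 and 9. The diets overlapped, and the log2 fold change was -0.27 ± 0.17 (adjusted p = 0.396 in edgeR), the most negative of the 29.

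The most abundant glycoproteins did not pass the test. Fn1, fibronectin, which hepatocytes secrete into plasma and stellate cells deposit in tissue, averaged 1404 ± 210 CPM in HFHC and 1232 ± 103 CPM in Chow, a log2 fold change of 0.19 ± 0.12 (adjusted p = 0.414 in edgeR). Dcn, decorin, another collagen-binding leucine-rich proteoglycan, averaged 113 ± 4.07 CPM in HFHC and 120 ± 8.18 CPM in Chow (-0.08 ± 0.08, adjusted p = 0.589 in edgeR). The 95% interval for Dcn ran from -0.26 to 0.09, the narrowest of the 29 members. Values of Fn1 and Dcn were not whole in all 6 libraries in the deposited table, where a share of a read can be assigned to a gene. Sparc, a collagen-binding matricellular protein of the same family as Smoc2, averaged 50.6 ± 7.68 CPM in HFHC and 48.2 ± 1.79 CPM in Chow. Fbn1, the fibrillin of elastic microfibrils, averaged 3.71 ± 0.70 CPM in HFHC and 3.72 ± 0.69 CPM in Chow. Neither passed (log2 fold changes 0.07 and -0.00, adjusted p = 0.764 and 0.993 in edgeR). Of Fbn1 exon sequence, 20.1% is also covered by Gm9913, which runs the other way, and the counting's strand setting is not known here.

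**Figure D2:**
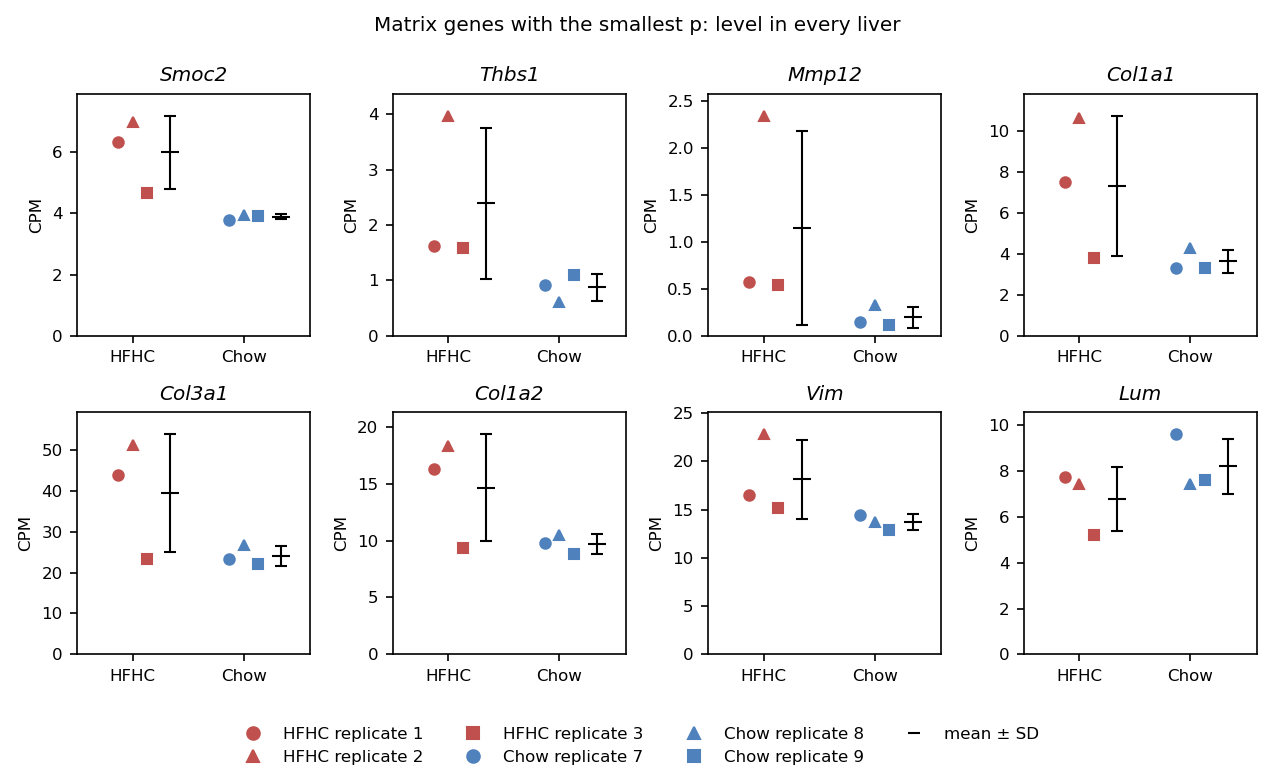
CPM in each liver (points, one marker shape per replicate) for the 8 matrix genes with the smallest p, with mean ± SD (n = 3 per diet). HFHC replicate 2 (triangle) is the highest library in 7 of the 8 panels, and HFHC replicate 3 (square) lies near the Chow livers for Col1a1, Col3a1 and Col1a2.

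The lysyl oxidases cross-link collagen and elastin. Lox was below the count filter, with 4, 22 and 3 counts in HFHC replicates 1, 2 and 3 and 7, 11 and 6 counts in Chow replicates 7, 8 and 9, and was not tested. Most of its HFHC counts came from HFHC replicate 2. Loxl1 averaged 1.02 ± 0.14 CPM in HFHC livers and 0.932 ± 0.346 CPM in Chow livers, and Loxl2 averaged 4.49 ± 1.22 CPM in HFHC and 3.91 ± 0.53 CPM in Chow. Neither passed (log2 fold changes 0.13 and 0.20, adjusted p = 0.855 and 0.641 in edgeR).

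Of the metalloproteinases, Mmp12 had the largest log2 fold change of the 29 members. It encodes macrophage elastase (chromosome 9, bases 7344381 to 7369499, plus strand), and a gap of 61.0 kb separates it from Mmp13. Mmp12 had 18, 73 and 16 counts in HFHC replicates 1, 2 and 3 and 4, 9 and 3 counts in Chow replicates 7, 8 and 9. These counts correspond to 0.573, 2.34 and 0.537 CPM in HFHC and 0.152, 0.327 and 0.113 CPM in Chow. All HFHC livers were above all Chow livers, with HFHC replicate 2 far above the rest. The log2 fold change was 2.51 ± 0.71, with a wide 95% interval from 0.91 to 4.12 (adjusted p = 0.0687 in edgeR), and it was 1.46 without HFHC replicate 2 (adjusted p = 0.142). Beside this, the summed Kupffer cell markers (7 genes) ran from 239 to 294 CPM in HFHC and from 199 to 237 CPM in Chow, without overlap. Of these 7 genes, 3 (Clec4f, Cd5l and Adgre1) were higher in every HFHC liver than in every Chow liver, as were 13.5% of all tested genes. Vsig4 and Timd4 had negative log2 fold changes (-0.14 and -0.03). The 6 markers of recruited macrophages summed to 14.99 to 16.7 CPM in HFHC and 14.0 to 17.0 CPM in Chow. HFHC replicate 2, the highest for Mmp12, had the lowest sum of the HFHC livers in both lists. Single genes differed in order. Marco (1.30, 2.34 and 1.78 CPM in HFHC replicates 1, 2 and 3), Itgax (0.604, 0.897 and 0.671) and Gpnmb (0.509, 0.576 and 0.268) were highest in HFHC replicate 2. Among the HFHC livers, no other gene of the lists was highest there. The recruited macrophage sum is mostly Cd9, and Cd9 alone had the same order of libraries within each diet. It stood at 11.6, 10.2 and 11.7 CPM in HFHC replicates 1, 2 and 3. In Chow replicates 7, 8 and 9 it stood at 13.4, 11.1 and 14.6 CPM. In that list 3 of 5 tested genes (Ccr2, Trem2 and Itgax) were higher in every HFHC liver than in every Chow liver, beside the same 13.5%. Gpnmb, which was not tested, was too. Of either list edgeR called none, beside 6.67% of all genes. Gpnmb, below the filter, had 16, 18 and 8 counts in HFHC replicates 1, 2 and 3 and 3, 0 and 0 counts in Chow replicates 7, 8 and 9. The part of these cells in the Mmp12 values was not tested.

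Mmp13, the main interstitial collagenase of rodents, was below the filter, with 5, 15 and 4 counts in HFHC replicates 1, 2 and 3 and 4, 3 and 4 counts in Chow replicates 7, 8 and 9. As for Mmp12, HFHC replicate 2 stood above the other 5 libraries. The start windows of this neighbouring pair are shown to set them side by side, Mmp12 at chr9:7344147-7344446 and Mmp13 at chr9:7272264-7272563 (GRCm38.p6, plus strand), with capitals for the AP-1 site TGANTCA and for the motifs named above.
Mmp12: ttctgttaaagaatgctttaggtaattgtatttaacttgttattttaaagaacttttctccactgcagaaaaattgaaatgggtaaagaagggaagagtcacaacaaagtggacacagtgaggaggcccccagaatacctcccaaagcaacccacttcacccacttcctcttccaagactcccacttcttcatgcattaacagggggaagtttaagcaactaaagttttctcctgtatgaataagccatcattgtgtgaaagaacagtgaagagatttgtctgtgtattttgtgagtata
Mmp13: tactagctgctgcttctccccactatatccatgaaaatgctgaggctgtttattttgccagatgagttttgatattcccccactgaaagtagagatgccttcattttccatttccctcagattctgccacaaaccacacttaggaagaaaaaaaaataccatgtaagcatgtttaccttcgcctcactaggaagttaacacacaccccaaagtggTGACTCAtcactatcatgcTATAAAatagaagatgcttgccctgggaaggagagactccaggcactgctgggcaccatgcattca
The Mmp13 window held 1 AP-1 site and 1 TATA box, and the Mmp12 window held none of these letters. An AP-1 site was present in 7.81% of all windows and in 2 of the 20 member windows.

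Mmp2, a gelatinase, averaged 1.95 ± 0.53 CPM in HFHC and 1.82 ± 0.36 CPM in Chow. Mmp14, the membrane-bound protease that activates pro-MMP2, averaged 21.1 ± 2.98 CPM in HFHC and 21.3 ± 1.71 CPM in Chow. Neither passed (log2 fold changes 0.10 and -0.01, adjusted p = 0.852 and 0.963 in edgeR), and the interval for Mmp14 ran from -0.27 to 0.25.

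The inhibitor Timp1, which activated stellate cells are known to induce, was near 0 in every liver. It had 1, 3 and 2 counts in HFHC replicates 1, 2 and 3 and 2, 0 and 0 counts in Chow replicates 7, 8 and 9, where 3 counts correspond to 0.0972 to 0.112 CPM on unscaled library totals. Timp1 was below the count filter and was not tested, and counts this low cannot measure a small difference. Timp2 averaged 10.5 ± 2.37 CPM in HFHC livers and 10.8 ± 1.21 CPM in Chow livers, and Timp3, which binds to the matrix itself, averaged 22.1 ± 1.82 CPM in HFHC and 23.9 ± 0.73 CPM in Chow. Their log2 fold changes were -0.04 ± 0.17 and -0.11 ± 0.09 (adjusted p = 0.908 and 0.517 in edgeR). Syn3, which runs the other way, covers 21.3% of Timp3 exon sequence.

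The ligand gene Tgfb1 averaged 5.43 ± 0.48 CPM in HFHC and 5.27 ± 1.09 CPM in Chow. The receptor gene Tgfbr2 averaged 26.4 ± 2.66 CPM in HFHC and 24.9 ± 1.72 CPM in Chow. Neither passed (log2 fold changes 0.04 and 0.09, adjusted p = 0.916 and 0.661 in edgeR), and their intervals ended at 0.41 and 0.31.

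Acta2, the smooth muscle actin by which myofibroblasts are identified, stood at 0.827, 2.18 and 1.11 CPM in HFHC replicates 1, 2 and 3 and at 1.37, 0.762 and 1.58 CPM in Chow replicates 7, 8 and 9. The diets overlapped (log2 fold change 0.15 ± 0.39, adjusted p = 0.863 in edgeR). Tagln, the actin-binding protein transgelin of contractile cells, averaged 5.36 ± 1.56 CPM in HFHC and 5.26 ± 1.14 CPM in Chow (0.03 ± 0.22, adjusted p = 0.959 in edgeR). Pcsk7 and Gm48529, which run the other way, cover 67.9% of its exon sequence. With the strand setting unknown, reads in that part could come from Tagln or from these genes. Vim, the intermediate filament protein of mesenchymal and immune cells, stood at 16.5, 22.8 and 15.2 CPM in HFHC replicates 1, 2 and 3 and at 14.5, 13.7 and 12.9 CPM in Chow replicates 7, 8 and 9. All HFHC livers exceeded all Chow livers, and the log2 fold change was 0.41 ± 0.15 (adjusted p = 0.144 in edgeR).

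The members varied more between the HFHC livers than between the Chow livers, and in a common order. HFHC replicate 2 was the highest of the 6 libraries for 21 of the 29 members, against 17.2% of all tested genes and 34.7% of the 124 further matrix genes described at the end. It lay above the HFHC mean for 28 members, Mmp14 being the other. HFHC replicate 3 lay below the HFHC mean for 28 members, with Loxl1 the exception, while 50.8% of all tested genes lay below it. The further matrix genes had the same order, with 83.1% above the HFHC mean in HFHC replicate 2 and 77.4% below it in HFHC replicate 3, at medians of 0.15 and -0.16 (log2). The median member stood at 0.05, 0.30 and -0.36 (log2) from its own HFHC mean in replicates 1, 2 and 3, where the median of all tested genes stood at 0.00, 0.01 and -0.00. In Chow replicates 7, 8 and 9 the median member stood at 0.04, 0.11 and -0.09 from its own Chow mean. The SD of log2 levels had a median of 0.39 in HFHC and 0.19 in Chow over the members, and of 0.14 in HFHC and 0.14 in Chow over all tested genes. The SD was wider in HFHC for 26 of 29 members (89.7%) and for 52.4% of all tested genes. These are descriptions of 3 livers a diet, in genes that share each library, and carry no test.

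**Figure D3:**
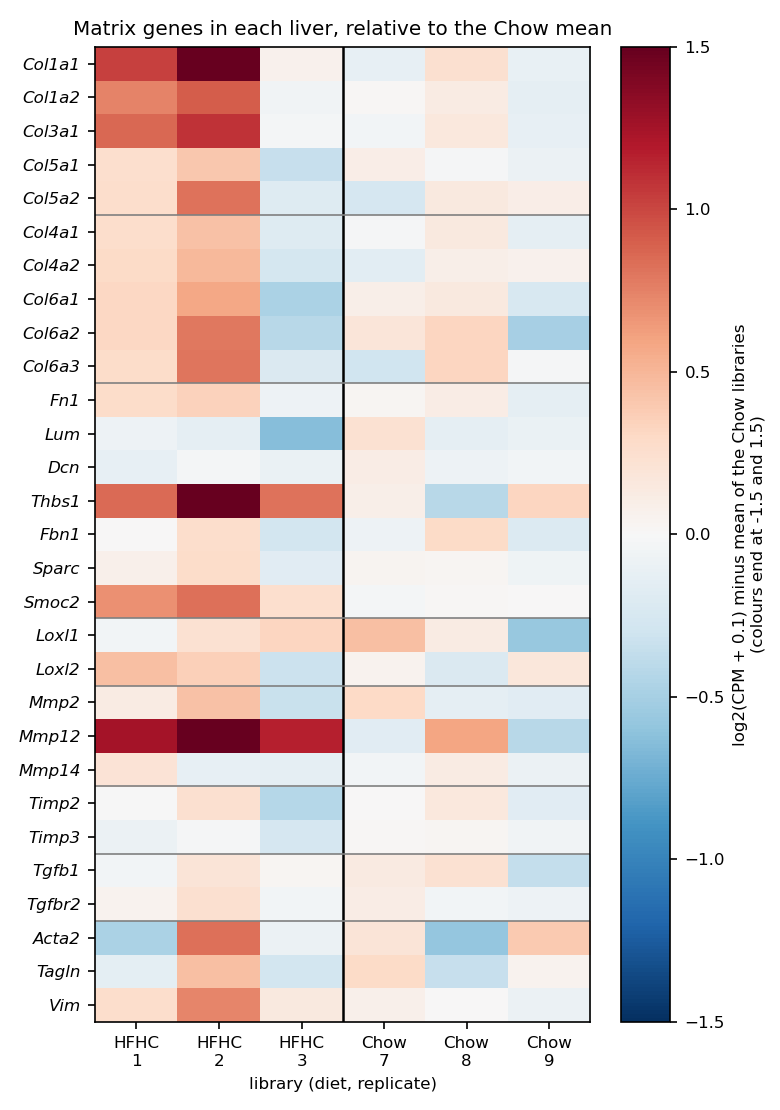
Level of each tested matrix gene in each liver, as log2(CPM + 0.1) minus the mean of the Chow livers, with genes grouped by role (grey lines) and HFHC left of Chow. The HFHC replicate 2 column is the reddest for 21 of 29 genes, and HFHC replicate 3 is close to or below the Chow mean for most collagens.

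The 10 stellate cell markers summed to 264, 265 and 255 CPM in HFHC replicates 1, 2 and 3 and to 289, 245 and 260 CPM in Chow replicates 7, 8 and 9. Within HFHC this sum was lowest in replicate 3, as for most members. Single stellate markers differed in order: Reln stood at 56.7, 63.3 and 47.2 CPM, Pdgfrb at 7.32, 8.17 and 5.23 CPM and Des at 2.77, 3.11 and 2.25 CPM in HFHC replicates 1, 2 and 3, in the order of the members. Rgs5 at 33.7, 29.3 and 37.9 CPM and Colec11 at 24.2, 24.6 and 29.2 CPM were highest in HFHC replicate 3. These 5 were chosen after their values were seen. Lrat (22.0, 22.2 and 22.0 CPM) and Hand2 (3.44, 3.55 and 3.39 CPM) also had the order of the members, with small differences. Within HFHC, Colec10 was highest in replicate 3, and Ecm1 and Ngfr in replicate 1. Lrat varied most of the 10 over Chow, at 33.8, 10.3 and 28.0 CPM in replicates 7, 8 and 9. The 8 sinusoidal endothelial markers summed to 283 to 311 CPM in HFHC livers and 298 to 309 CPM in Chow livers, and the 6 cholangiocyte markers to 33.6 to 39.3 CPM in HFHC and 31.4 to 37.4 CPM in Chow. The 5 vascular smooth muscle markers summed to 97.1 to 117 CPM in HFHC and 107 to 116 CPM in Chow, nearly all of it Mylk, while Actg2 and Cnn1 were at 0 in some libraries. The 10 portal fibroblast and mesothelial markers summed to 6.11, 12.0 and 7.98 CPM in HFHC replicates 1, 2 and 3 and to 11.7, 11.5 and 7.32 CPM in Chow replicates 7, 8 and 9, with Gli1 at 0 in 1 library. This sum was highest in HFHC replicate 2 and nearly as high in Chow replicates 7 and 8. Within HFHC every gene of this list was highest in replicate 2, except Thy1 and Gli1, which were highest in replicate 3. Msln stood at 0.445, 1.95 and 1.04 CPM and Upk3b at 0.986, 2.79 and 1.17 CPM in HFHC replicates 1, 2 and 3. In Chow replicates 7, 8 and 9 Msln stood at 1.14, 2.00 and 0.453 CPM and Upk3b at 3.30, 3.59 and 0.905 CPM. Both were chosen after their values were seen. The part of any of these cell types in the matrix values was not tested. Of 51 tested markers edgeR called 0, beside 6.67% of all genes. At an unadjusted p under 0.05, 5 were higher and 3 lower, beside 10.8% and 11.5% of all genes. DESeq2 and limma-voom each called 1 lower, where they called 4.52% and 3.26% of all genes lower.

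Levels of different members are comparable only per length, here as CPM per kilobase of merged GENCODE M21 exons, averaged over all 6 livers. Fn1 stood first at 113 ± 15.002, then Dcn at 19.97 ± 1.18 and Sparc at 13.04 ± 1.36, and the ranges of these 3 overlapped neither each other nor any lower member. The 10 genes from Col4a1 at 3.77 ± 0.65 through Col3a1 at 3.23 ± 1.27 to Tagln at 2.67 ± 0.62 overlapped from neighbour to neighbour. A gap followed before Col6a1 at 1.26 ± 0.33, and from there down each neighbour overlapped the next. Col1a2 (0.978 ± 0.326) and Col1a1 (0.833 ± 0.453) did not separate. Merged exons, which pool all annotated transcripts of a gene, span 12.4 kb for Col1a2 and 6.56 kb for Col1a1. The levels of these chains and their ratio depend on those lengths. Within livers Col1a1 stood at 0.914 ± 0.170 times Col1a2 in HFHC and 0.709 ± 0.065 times in Chow, with the diets overlapping at HFHC replicate 3 (0.770) and Chow replicate 8 (0.770). Acta2 was at 0.594 ± 0.241, and Mmp12, Mmp13, Lox and Timp1 closed the order at 0.0930, 0.0739, 0.0636 and 0.0508.

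**Figure D4:**
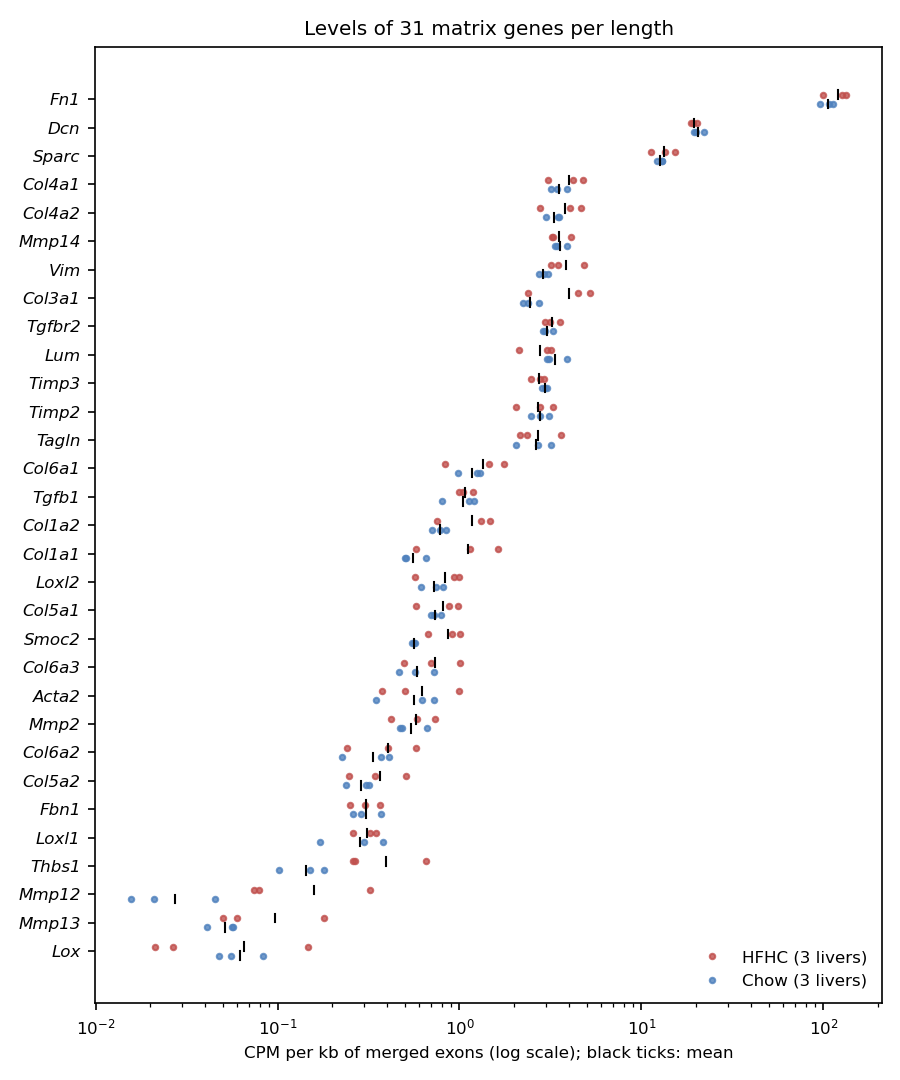
CPM per kilobase of merged exons (log axis) for 31 matrix genes, with HFHC livers above Chow livers in each row and black ticks at the means; Timp1 is left out since it was 0 in 2 libraries. Fn1, Dcn and Sparc stand apart at the top, and the diets overlap for all but Smoc2, Vim, Thbs1 and Mmp12.

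Outside the 32 members, 8 further lists hold matrix proteins, their processing enzymes, proteases, receptors, contractile genes and TGF-beta and PDGF signalling genes. All are called further matrix genes here, of which 146 were in the table and 124 were tested. Of these 4 rose and 1 fell, 4.03% in all, against 6.67% of all tested genes, and the median log2 fold change was -0.01. Without Chow replicate 7 all 5 missed the threshold in edgeR, and without Chow replicate 8 it called 8 higher. Inhbe, which encodes the beta E chain of activin and is secreted by hepatocytes, rose to 121, 119 and 93.3 CPM in HFHC, against 23.4, 57.0 and 23.0 CPM in Chow (1.69 ± 0.31, adjusted p = 0.0150 in edgeR). Inhbe did not pass when Chow replicate 7 was left out (adjusted p = 0.0525) or in the robust edgeR fit (0.113).

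Among collagens outside the members, 2 of 11 tested rose, beside 3.38% of all tested genes. Col27a1, a fibrillar collagen known from cartilage, rose to 62.9, 62.4 and 56.4 CPM in HFHC, against 33.2, 45.3 and 33.8 CPM in Chow (0.69 ± 0.12, adjusted p = 0.0119 in edgeR). Without Chow replicate 7 its adjusted p was 0.0530. Col5a3, the third chain gene of type V collagen, rose to 68.9, 54.9 and 40.2 CPM in HFHC, against 29.6, 35.7 and 35.1 CPM in Chow (0.71 ± 0.17, adjusted p = 0.0405 in edgeR). The Col5a3 call was lost without HFHC replicate 1 (0.101) or 2 (0.0957), and without Chow replicate 7 (0.148) or 9 (0.0957), and also in limma-voom (0.0524) and the robust edgeR fit (0.0720). Whether Col5a3 differed in response from Col5a1 and Col5a2, which did not pass, was not tested. HFHC replicate 1, not replicate 2, was the highest library for both Col27a1 and Col5a3.

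Tgfbi, a secreted protein named for its induction by TGF-beta, rose to 29.1, 32.5 and 29.2 CPM in HFHC, against 23.4, 22.4 and 23.3 CPM in Chow (0.39 ± 0.08, adjusted p = 0.0228 in edgeR). Its call was lost without HFHC replicate 1 (0.0507) or 2 (0.0781) and without Chow replicate 7 (0.0847) or 9 (0.0789). Pdgfc, a ligand of the platelet-derived growth factor family, fell to 4.10, 2.95 and 4.39 CPM in HFHC, against 6.94, 5.37 and 7.96 CPM in Chow (-0.82 ± 0.19, adjusted p = 0.0355 in edgeR). Pdgfc passed without Chow replicate 8 but not without any other single library (0.0526 to 0.122). edgeR called none of 21 tested genes of collagen processing, 10 of the basement membrane, 27 further glycoproteins and proteoglycans, 11 matrix receptors and 8 contractile genes. At an unadjusted p under 0.05 it gave 9 higher and 2 lower among these 77, beside 10.8% and 11.5% of all genes. DESeq2 called 1 of them higher (4.1% of all genes) and limma-voom none (3.15% higher, 3.26% lower). Limma-voom with sample weights called 1 higher and 1 lower, beside 4.73% and 5.3% of all genes.

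**Figure D5:**
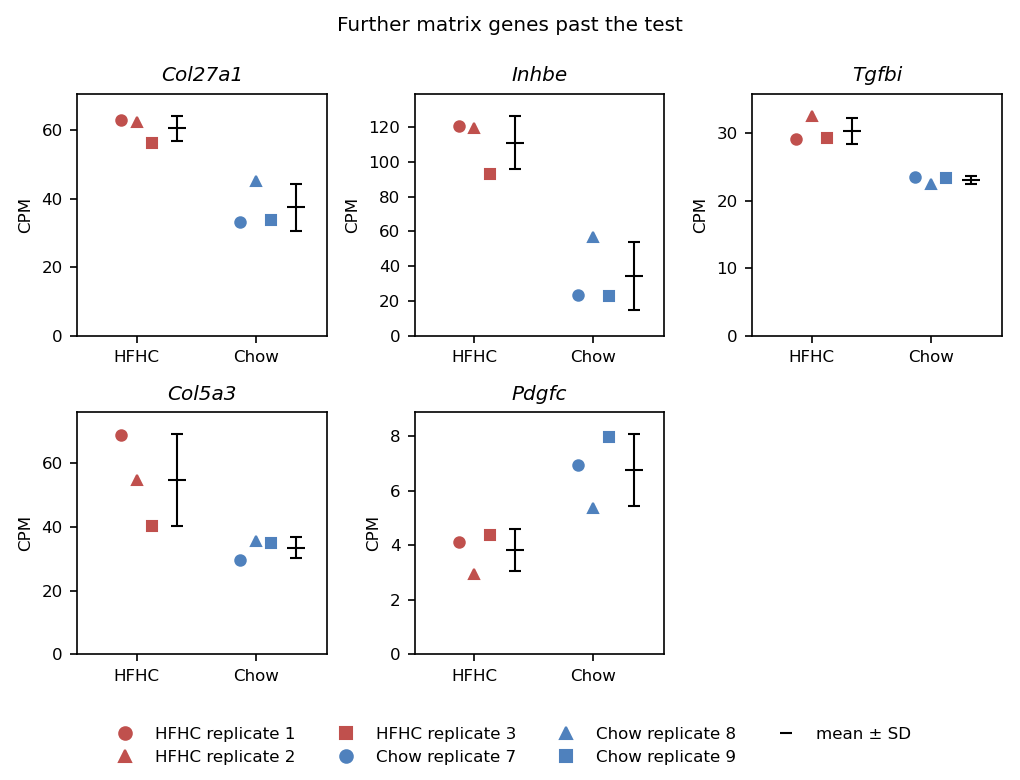
CPM in each liver (points) with mean ± SD (n = 3 per diet) for the 5 genes of the further lists past the test. Col27a1 and Col5a3 are collagens, and Inhbe, Tgfbi and Pdgfc come from the list of TGF-beta and PDGF signalling. All HFHC livers lie above all Chow livers for Col27a1, Inhbe, Tgfbi and Col5a3, and below them for Pdgfc.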

How the data were processed

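RNA of 6 mouse livers was sequenced after ribosomal RNA depletion with a stranded total RNA kit, per the labels' protocols. The submitters' processing notes name STAR 2.7.3a, Partek 9 and the mm10 build. Neither counting annotation nor strand setting is stated in the labels or file. The authors deposited estimated counts per gene, not normalised, of which 22.4% were not whole numbers (tolerance 0.01), and these were rounded. Counting by shares between genes, and reads of opposite-strand genes, can move values of overlapping genes.

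Genes were kept by edgeR's filterByExpr with a minimum count of 10. HFHC was tested against Chow with edgeR 4.0.16 in R 4.3.3 (TMM factors 0.971 to 1.02, quasi-likelihood F test, Benjamini-Hochberg adjustment over all 14896 genes, threshold 0.05). CPM are on TMM-scaled library sizes. SE is the log2 fold change divided by the square root of F, and its 95% intervals include the spread between livers. One count was worth 0.0324 to 0.0374 CPM on unscaled totals, and this floor covers counting error only. The 16 alternatives included DESeq2 1.42.0 and limma 3.58.1 (voom). The fitting code was tested on simulated data.

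The table's gene coordinates matched GENCODE M21 in start and symbol for 19613 genes, and 19527 ends lay 1 base further, a base taken off here. Promoter windows are from RefSeq, GRCm38.p6. For the members, windows on chromosome 18, where Lox lies, were left out and a single window was kept per gene. This left windows for 20 of 32 members. Neither limit was applied to the windows of all genes.

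The members and lists were chosen with earlier results of these data known. Values in every library are given for the 8 tested members with the smallest p, for members whose diets did not overlap, for members below the filter and for called genes of the other lists. Other members are given by mean and SD, and Acta2 in every library, chosen after its values were seen. A gene of the further lists is not reported here and stays out of their counts.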

Additional observations from a re-analysis of the deposited data

How the results depend on the processing

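No paired analysis was possible because the labels give neither a pairing nor the litter of each animal. The Chow animals were littermates, but litter could not be put in the model. The replicate numbers (1, 2 and 3 against 7, 8 and 9) do not show which animals belong together. Over 16 alternatives, 419 values of single members kept their direction and side of the threshold, 14 passed it (6 genes) and 29 changed sign (12 genes). The cause was not tested. Members called higher numbered 1 with upper-quartile factors (Smoc2), 5 in DESeq2, 3 in limma-voom with sample weights, 1 in the robust edgeR fit (Smoc2, chosen after seeing the data) and 0 to 4 when 1 library was left out, with 4 without HFHC replicate 3.

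Sign changes, with log2 fold changes: Fbn1 was 0.0233 with upper-quartile factors, 0.00958 without a filter and 0.0919 in limma-voom with sample weights, and Mmp14 was 0.0151, 0.000425 and 0.0660 in the same order. In limma-voom with sample weights Timp2 was 0.0306, Acta2 -0.119 and Tagln -0.0393. Leaving out 1 library gave -0.0125 to 0.33 for Col5a1, -0.0323 to 0.45 for Col6a1, -0.0480 to 0.54 for Col6a2, -0.15 to 0.16 for Fbn1, -0.0394 to 0.18 for Sparc and -0.13 to 0.39 for Loxl1. It gave -0.10 to 0.29 for Mmp2, -0.13 to 0.0611 for Mmp14, -0.20 to 0.12 for Timp2, -0.12 to 0.16 for Tgfb1, -0.35 to 0.42 for Acta2 and -0.23 to 0.18 for Tagln.

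Of all genes, 207 to 527 were higher and 154 to 553 lower when 1 library was left out, and 790 were lower in limma-voom with sample weights. Of the further matrix genes, 2 were higher in the robust fit and 0 to 8 with 1 library left out, with 0 without Chow replicate 7. Those lower numbered 2 in DESeq2, 3 in limma-voom with sample weights, 2 in the robust fit and 0 to 1 with 1 library left out. With 3 livers a diet, the median SE of a member's log2 fold change was 0.19, and Lox, Mmp13 and Timp1 had too few counts to be tested.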
